A study of Homo sapiens with 10 samples.

Results

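MicroRNAs held by a probe against the p21 messenger RNA were compared between 2 human cell lines, HepG2, derived from a liver tumour, and PC-3, derived from a prostate cancer. The members are all 745 miRNA assays (375 on panel 1 and 370 on panel 2) of the 2 p21 purifications, which make up 4 of the 10 samples of the series because each purification was run on 2 panels. Per the labels, the p21 probe was transfected into living HepG2 or PC-3 cells for 24 hours, what it held was taken up on streptavidin beads, RNA was isolated with TRIzol, and miRNAs were quantified by SYBR Green PCR. HepG2 was grown in EMEM and PC-3 in Ham's F12K, both with serum, so cell line and medium cannot be told apart. The sequence of the probe and the amount of p21 mRNA recovered were not analysed here, and recovery, number of cells and miRNA per cell cannot be told apart in any value below. Each line was purified 1 time, so the differences are without replication and carry no p-value.

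p21 (CDKN1A) is an inhibitor of cyclin-dependent kinases that halts the cell cycle after DNA damage and is a well-known target of miRNAs. A miRNA is loaded into an Argonaute protein and pairs with messenger RNAs mainly through its seed, bases 2 to 8, so miRNAs with one seed can bind the same sites. A pull-down on an mRNA can recover miRNAs bound to it together with small RNA that stays on the beads.

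The readout is the Cq, the PCR cycle at which the signal crosses a threshold. A lower Cq means more RNA. A Cq of at most 35 was taken as detection, and the difference between the lines was Cq in PC-3 minus Cq in HepG2 within a panel, positive where HepG2 gave more. It was not scaled to any reference, and 1 cycle was taken as 2-fold.

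The mature sequences of the miRNAs on which the comparison turns are shown with the seed in capitals, from RefSeq on GRCh38.p14, read 5′ to 3′. The first set holds the abundant miRNAs that were higher in HepG2, with let-7g, which was detected there only.
miR-92a: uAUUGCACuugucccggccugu
miR-92b: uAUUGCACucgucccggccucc
let-7b: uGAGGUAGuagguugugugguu
let-7d: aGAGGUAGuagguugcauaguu
let-7e: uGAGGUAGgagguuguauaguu
let-7g: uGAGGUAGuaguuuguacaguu
miR-193b: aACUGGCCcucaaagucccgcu
miR-320b: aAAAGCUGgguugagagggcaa
miR-103: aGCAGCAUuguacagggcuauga
miR-23a: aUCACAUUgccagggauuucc
miR-27a: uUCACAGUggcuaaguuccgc
miR-24: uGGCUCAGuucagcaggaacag
miR-125a-5p: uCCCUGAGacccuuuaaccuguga
miR-106a: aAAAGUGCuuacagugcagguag

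The second set holds miRNAs that were level between the lines or higher in PC-3, together with the leading miRNA seen in HepG2 only, miR-296-5p, and in PC-3 only, miR-542-5p.
let-7d*: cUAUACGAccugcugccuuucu
miR-346: uGUCUGCCcgcaugccugccucu
miR-888: uACUCAAAaagcugucaguca
miR-1266: cCUCAGGGcuguagaacagggcu
miR-296-5p: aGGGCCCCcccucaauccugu
miR-542-5p: uCGGGGAUcaucaugucacgaga

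miR-92a and miR-92b share the seed AUUGCAC, and the 4 let-7 members share GAGGUAG. miR-92a is encoded at chr13:91351361-91351382 (plus strand, MIR92A1) and chrX:134169544-134169565 (minus strand, MIR92A2), and miR-92b at chr1:155195237-155195258 (plus strand). let-7b lies at chr22:46113691-46113712 (plus strand) and miR-193b at chr16:14304017-14304038 (plus strand). let-7e and miR-125a-5p lie side by side on chromosome 19, at chr19:51692793-51692814 and chr19:51693268-51693291, both on the plus strand. miR-23a, miR-27a and the MIR24-2 copy of miR-24 form another chromosome 19 cluster, from chr19:13836595-13836615 to chr19:13836289-13836310 on the minus strand. let-7d and let-7d* are the arms of 1 hairpin, at chr9:94178841-94178862 and chr9:94178895-94178916 on the plus strand. These are genes of small non-coding RNAs, and the coordinates are those of the mature miRNA.

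The p21 purification of HepG2 held many more miRNAs above the limit than that of PC-3, and what PC-3 held was nearly all found in HepG2 too. HepG2 gave 211 of 745 assays (28.3%) and PC-3 gave 53 (7.11%). Both lines gave 45 assays, HepG2 alone 166, PC-3 alone 8 and neither 526. Of the assays of PC-3, 84.9% were therefore also detected in HepG2, while 21.3% of those of HepG2 were also detected in PC-3. The control probe gave 125 assays in HepG2 and 16 in PC-3, so the lines also differed in how many assays passed the limit with that probe.

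Both purifications were made up mostly of scarce miRNAs. In HepG2 the 211 Cq values ran from 21.54 to 34.97 with a median of 32.99, and 31 lay at or under 30. In PC-3 the 53 values ran from 26.50 to 34.96 with a median of 33.92, and 4 lay at or under 30. Water gave a Cq in 0 of 9 wells.

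The reference assays differed between the lines by less than most miRNAs did. U6, a spliceosomal RNA, was at Cq 28.78 in HepG2 and 28.62 in PC-3 on panel 1, and at 28.32 and 28.82 on panel 2. SNORD38B, a small nucleolar RNA, was at 27.88 and 28.46 on panel 1 and at 27.28 and 29.46 on panel 2. SNORD49A, another one, was at 26.33 and 27.41 on panel 1 and at 26.20 and 28.35 on panel 2. All but U6 on panel 1 came earlier in HepG2, and the mean difference of these 6 wells was 1.06 ± 0.95 cycles (SD). UniSp6, a synthetic RNA that reports on reverse transcription and PCR rather than on the cells, was at 21.18 in HepG2 and 22.25 in PC-3 on panel 1 and at 20.37 and 21.88 on panel 2. Its differences of 1.07 and 1.51 cycles are of the same size as those of the small RNAs.

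Error could be measured only from assays repeated on both panels and from repeated UniSp3 wells. Whether both panels received the same RNA input is not stated. For U6, SNORD38B, SNORD49A and UniSp6 the difference was larger on panel 2 each time, by 0.44 to 1.60 cycles with a mean of 0.94. The SD of a difference between panels over these 4 pairs, 0.74 cycles, therefore holds a shift between the panels as well as the error of a well. The SD of a Cq between panels was 0.32 cycles in HepG2 (7 pairs) and 1.18 in PC-3 (6 pairs). miR-423-5p, present on both panels, was at Cq 28.72 and 28.39 in HepG2 but at 32.24 and 35.77 in PC-3, so its difference was 3.53 cycles on panel 1 and 7.38 on panel 2. miR-103 was at 27.91 and 27.74 in HepG2, and in PC-3 it gave no Cq on panel 1 and 34.86 on panel 2. miR-191 was at 31.06 and 30.96 in HepG2 and at 35.86 and 37.33 in PC-3. Repeats of these miRNAs were close in HepG2 and far apart in PC-3, where most of their values sat near or past the limit. In PC-3 the repeats of U6 (28.62 and 28.82) and UniSp6 (22.25 and 21.88) were closer. Those of SNORD38B (28.46 and 29.46) and SNORD49A (27.41 and 28.35) were less close. The difference of miR-423-5p moved by 3.85 cycles between its wells. The UniSp3 calibrator, added to the PCR plates, spread from 21.60 to 24.91 over the 3 panel 1 wells of HepG2. Its SD over 3 wells was 1.72 cycles in HepG2 and 0.89 in PC-3 on panel 1. On panel 2 it was 0.60 and 1.74, so neither line had the closer wells on both panels.

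**Figure D1:**
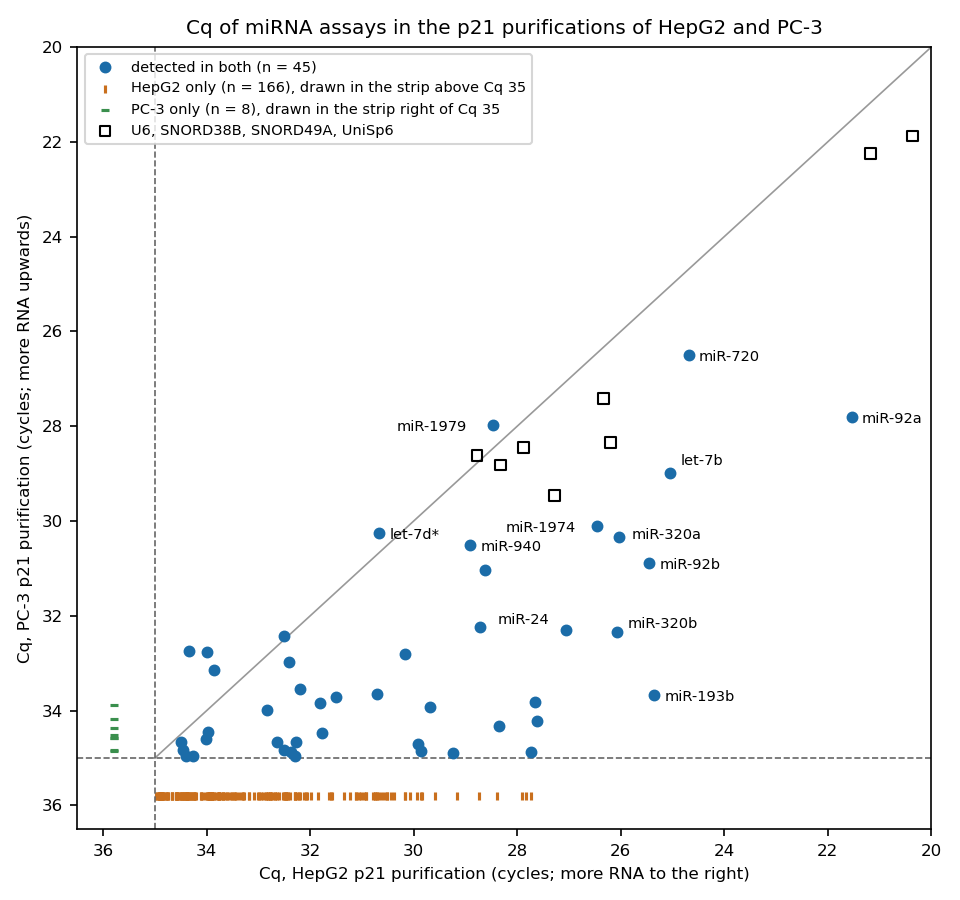
Cq of each miRNA assay in the p21 purification of HepG2 (horizontal) and PC-3 (vertical), in cycles on axes reversed so that more RNA lies to the right and upwards; circles are the 45 assays detected in both, ticks the 166 and 8 detected in 1 line, squares the reference assays, dashed lines Cq 35 and the diagonal equal Cq. Most circles lie below the diagonal, with miR-193b farthest, while miR-1979 and let-7d* lie on or above it.

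By rank, the same few RNAs stood at the top in both lines. In HepG2 the 10 lowest Cq values belonged to miR-92a (21.54), miR-720 (24.69), let-7b (25.04), miR-193b (25.35), miR-92b (25.45), miR-320a (26.04), miR-320b (26.07), miR-1974 (26.46), miR-24 (27.06) and miR-23a (27.62). In PC-3 they belonged to miR-720 (26.50), miR-92a (27.81), miR-1979 (27.97), let-7b (28.99), miR-1974 (30.11), let-7d* (30.24), miR-320a (30.34), miR-940 (30.51), miR-92b (30.88) and let-7e (31.03). The lists have 6 assays in common, miR-92a, miR-720, let-7b, miR-92b, miR-320a and miR-1974. All 10 leading assays of each line were detected in the other. Cq values of different assays also carry the efficiency of each assay, so the order is one of Cq and not of molecules.

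Only part of that order exceeds the spread between panels. In HepG2 miR-92a, a product of the growth-promoting miR-17-92 cluster, came 3.15 cycles before the next assay, while the neighbours at ranks 2 to 10 were 0.03 to 0.60 cycles apart. In PC-3 the step from miR-720 to miR-92a was 1.31 cycles. Ranks 5 to 10 lay within 0.37 cycles of their neighbours there, against an SD of 1.18 cycles between panels. That SD holds a mean shift between panels of 1.13 cycles and the pair of miR-423-5p at 32.24 and 35.77, later than these ranks. It is therefore not the error of a well for assays on 1 panel. Over the 45 shared assays Cq in the lines went together with a Pearson r of 0.65 and a Spearman rho of 0.56, across assays that are not replicates and that share their efficiency in both lines.

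Some assays stood at different ranks, counted among 211 assays in HepG2 and 53 in PC-3. miR-193b, reported as a growth-restraining miRNA, was rank 4 in HepG2 and rank 22 in PC-3. miR-23a went from rank 10 to 30. Conversely, let-7d* was rank 42 in HepG2 and rank 6 in PC-3, miR-1266 was 162 and 15, miR-888 was 146 and 16, and miR-346 was 132 and 19. These last 4 assays had a lower Cq in PC-3 than in HepG2, while 39 of the 45 shared assays came later in PC-3.

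Among the 45 shared assays, 32 (71.1%) were at least 2-fold higher in HepG2, 2 (4.44%) were at least 2-fold higher in PC-3 and 11 lay between. The median difference was 2.41 cycles, with a range from -1.61 to 8.32, and it was close on both panels (2.50 over 31 assays and 2.30 over 14). At a size of 4-fold, 28 were higher in HepG2 and 0 in PC-3. The split depends on the scale. It was 34 against 1 relative to UniSp3, 28 against 6 relative to U6, SNORD38B and SNORD49A, and 24 against 8 relative to UniSp6. It was 21 against 11 relative to the 3 small RNAs together with the panel's detected reference miRNA, which is miR-423-5p on panel 1 and miR-103 on panel 2, both members themselves. Relative to the median shared miRNA of each panel, which places as many assays above 0 as below it, the split was 17 against 14. Without scaling 39 assays lay above 0 and 6 below, and relative to the panel median 22 and 22, with 16 assays turning from above 0 to below. At least 2-fold higher in HepG2 on the raw scale and on all 5 centred ones were 16 assays, and at least 2-fold higher in PC-3 on all of them was 1, miR-1266.

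**Figure D2:**
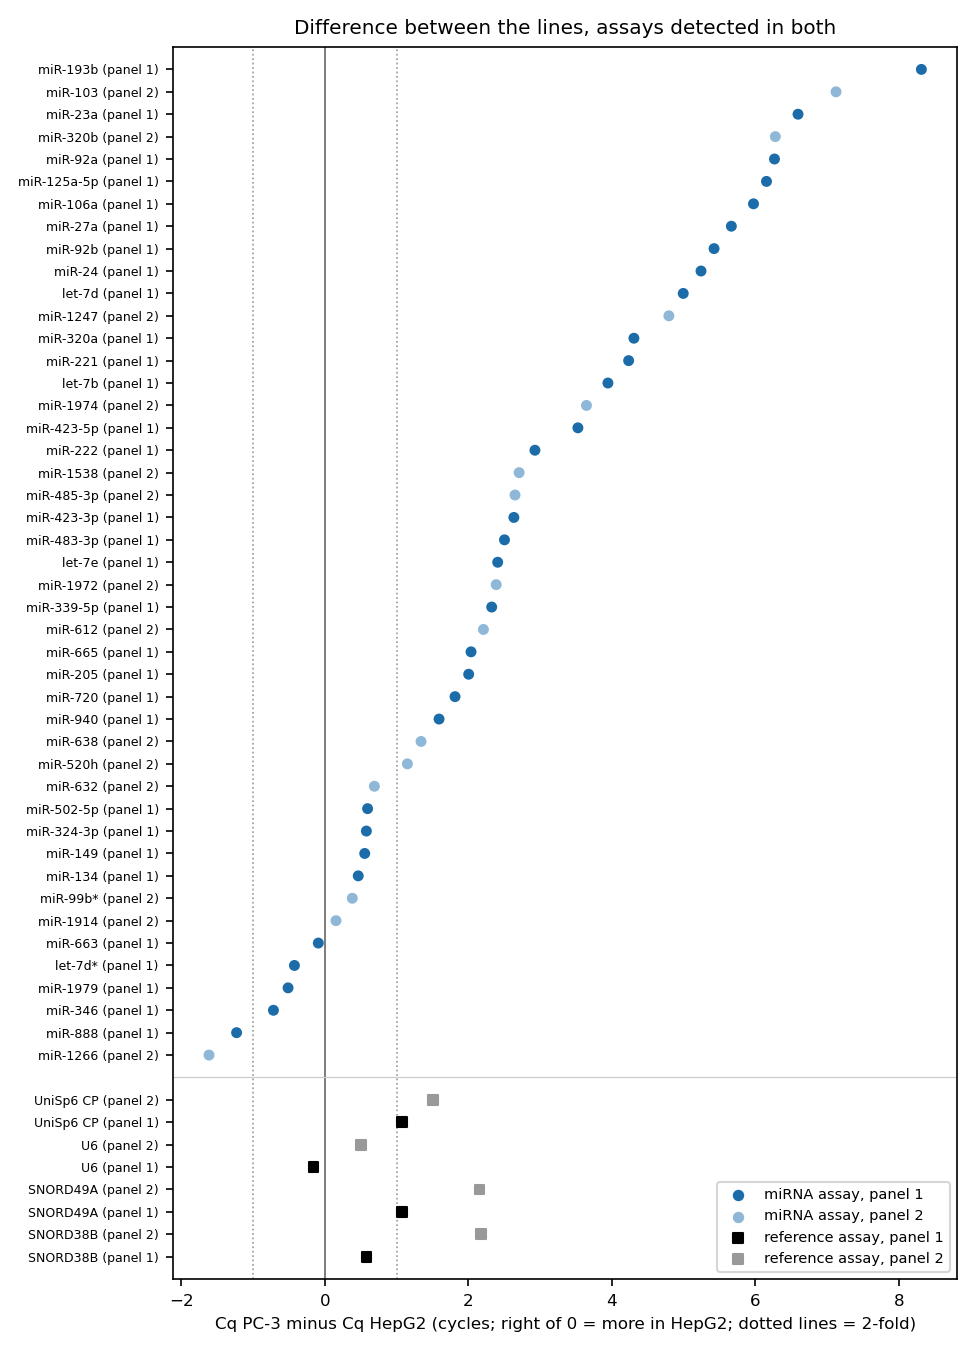
Cq in PC-3 minus Cq in HepG2 (cycles) for the 45 miRNA assays detected in both lines, sorted, and for the reference assays below the line; colour marks the panel and dotted lines 2-fold. Differences run from -1.61 (miR-1266) to 8.32 (miR-193b), and the reference assays from -0.16 to 2.18.

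The largest differences belonged to miRNAs that were abundant in HepG2, which the detection limit sets in advance. A shared assay must be at Cq 35 or under in PC-3, so a large difference needs a low Cq in HepG2. miR-193b was at Cq 25.35 in HepG2 and 33.67 in PC-3, a difference of 8.32 cycles (319-fold). miR-103, which is known for roles in metabolism, differed by 7.13 cycles on panel 2 (140-fold), with a PC-3 Cq of 34.86 at the edge of detection. miR-23a was at 27.62 and 34.21 (6.60 cycles, 96.7-fold). All 3 PC-3 values lay above 33, close to the limit, where repeat wells were far apart.

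miR-92a and miR-92b, the pair with the AUUGCAC seed, were both abundant in each line and both far higher in HepG2. miR-92a was at 21.54 in HepG2 and 27.81 in PC-3, a difference of 6.27 cycles (77.1-fold). miR-92b was at 25.45 and 30.88, a difference of 5.43 cycles (43.0-fold). The third detected holder of that seed, miR-25, was at 32.23 in HepG2 and recorded above the limit in PC-3 at 36.88. On the centred scales miR-92a kept a difference of at least 3.76 cycles and miR-92b of at least 2.92. In HepG2 the control probe gave 30.58 for miR-92a and 33.16 for miR-92b, and in PC-3 it gave no Cq for either, so both came earlier with the p21 probe in HepG2 and were seen with that probe alone in PC-3. The median difference of the family was 5.85 cycles over 2 shared assays, beside 2.41 over all 45. Both lie at Cq 28 or under in HepG2, where the median over 12 shared assays was 5.79. The family's difference is thus the usual size for assays at that HepG2 level.

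The let-7 family, which restrains growth genes such as RAS and HMGA2, was detected in part in both lines. Of 9 members measured, 7 were detected in HepG2 and 3 in PC-3, beside 28.3% and 7.11% of all assays. Of those in HepG2, 42.9% were also in PC-3, beside 21.3% over all assays, but that share went with the HepG2 level. let-7b and let-7g lay at Cq 28 or under in HepG2, where 80% of assays were also detected in PC-3. let-7e and let-7d lay between 28 and 30, where 56.2% were. The median difference was 3.95 cycles over the shared 3. let-7b was at 25.04 in HepG2 and 28.99 in PC-3 (3.95 cycles), let-7e at 28.62 and 31.03 (2.41) and let-7d at 29.86 and 34.86 (5.00). These 3 were unequal in size, and let-7e turned to -0.095 relative to the panel median while let-7b and let-7d stayed at 1.44 and 2.49 or more on every scale. let-7g was at 27.83 in HepG2, earlier than let-7e, yet at 35.22 in PC-3, just past the limit. let-7c was at 30.16 and 35.78, let-7a at 33.18 and 37.62, and let-7i at 32.30 with no Cq in PC-3. With the control probe 0 members were detected in PC-3 and 8 in HepG2, where that probe gave 2.15% and 16.8% of all assays.

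The arms of the let-7d hairpin did not go together. let-7d was 5.00 cycles higher in HepG2, whereas let-7d*, the opposite arm, was at 30.67 in HepG2 and 30.24 in PC-3 (-0.42 cycles, turning to 0.63 relative to UniSp3). In HepG2 let-7d preceded let-7d* by less than a cycle, and in PC-3 let-7d* came more than 4 cycles earlier. let-7d* was also present with the control probe, at 30.14 in HepG2 and 31.31 in PC-3. Of 155 star (opposite arm) assays 31 were detected in HepG2 (20%, beside 28.3% over all assays) and 2 in PC-3 (1.29%, beside 7.11%). Both of these were shared, the other being miR-99b* at 34.46 and 34.84.

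Both measured miR-320 members were far higher in HepG2. miR-320a was at 26.04 and 30.34 (4.31 cycles, 19.8-fold) and miR-320b at 26.07 and 32.35 (6.28 cycles, 77.7-fold). They were level in HepG2 and 2 cycles apart in PC-3, but they sit on different panels, and reference assays differed by up to 1.60 cycles more on panel 2.

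The miR-23, miR-24 and miR-27 clusters, products of shared precursor transcripts, were detected whole in HepG2 and in part in PC-3. All 5 members were detected in HepG2, from Cq 27.06 to 30.68, and 3 in PC-3, from 32.30 to 34.91. Over all assays 28.3% were detected in HepG2 and 7.11% in PC-3. Of the members in HepG2, 60% were also in PC-3, beside 21.3% over all assays. At HepG2 Cq 28 or under, 28 to 30 and 30 to 32, the share of assays also in PC-3 was 80%, 56.2% and 17.6%. miR-24 was at 27.06 and 32.30 (5.24 cycles), miR-23a as above, and miR-27a at 29.24 and 34.91 (5.67). The 3 thus differed between the lines by 5.24 to 6.60 cycles, with a median of 5.67. Mature miR-24 is the same from its copies on chromosomes 9 and 19, so its value cannot be assigned to either cluster. The relatives miR-23b and miR-27b were not detected in PC-3: miR-23b was at 30.68 in HepG2 and 38.35 in PC-3, and miR-27b at 30.51 with no Cq in PC-3.

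let-7e and miR-125a-5p, neighbours on chromosome 19, differed between the lines by unequal amounts. let-7e was 2.41 cycles higher in HepG2, and miR-125a-5p, at 27.66 and 33.82, was 6.16 cycles higher (71.3-fold). All 5 members of the miR-125 and miR-99/100 families were detected in HepG2 (27.66 to 32.08), beside 28.3% of all assays. In PC-3 1 of these 5 (20%) was detected, near the 21.3% over all assays of HepG2, and it was miR-125a-5p. miR-125b, its seed partner with CCCUGAG, was at 29.83 in HepG2 and 35.70 in PC-3, and it was at 29.83 in HepG2 with the control probe as well. miR-99a was at 29.59 and miR-100 at 32.08 in HepG2, and neither gave a Cq in PC-3.

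The miR-17 family, reported repressors of p21, was led by miR-106a in HepG2 and present as miR-106a alone in PC-3. Of 6 members 4 were detected in HepG2, and 1 of these 4 (25%) in PC-3, close to the 21.3% over all assays. miR-106a was at 28.35 in HepG2 and 34.33 in PC-3 (5.98 cycles, 62.9-fold). miR-93 (29.85), miR-20a (30.07) and miR-17 (33.53) were detected in HepG2, and in PC-3 miR-93 was recorded at 35.67, miR-20a at 38.18 and miR-17 not at all. The embryonic family with miR-302 and miR-372 gave 0 of 11 members in either line, where 28.3% and 7.11% of all assays were detected.

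Among 11 measured assays of other reported p21 regulators, 5 were detected in HepG2 (45.5%) and 1 in PC-3 (9.09%). The shares over all assays were 28.3% and 7.11%. The 20% of HepG2 assays also seen in PC-3 is near the 21.3% over all assays. The shared one, miR-423-3p, was at 30.17 and 32.80 (2.64 cycles, 6.21-fold). miR-132 (32.29), miR-345 (33.65), miR-224 (33.76) and miR-654-3p (34.92) were detected in HepG2 alone. With PC-3 at the limit, the bound is at least 6.54-fold for miR-132 and at least 1.06-fold for miR-654-3p.

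miR-221 and miR-222, growth-promoting miRNAs encoded together with the seed GCUACAU, were detected in both lines. miR-221 was at 29.69 in HepG2 and 33.92 in PC-3 (4.23 cycles) and miR-222 at 30.71 and 33.64 (2.93). miR-31, a metastasis-linked miRNA, was at 30.38 in HepG2 and 38.47 in PC-3. The miR-15/16 family, which represses cyclins, gave 4 of 6 members in HepG2, led by miR-15a at 30.71, and 0 in PC-3. The miR-30 family gave 3 of 5 members in HepG2, led by miR-30c at 28.74, and 0 in PC-3, where miR-30c was recorded at 35.15. Over all assays 28.3% were detected in HepG2 and 7.11% in PC-3, so a count of 0 in sets of 6 and 5 is near the PC-3 background.

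**Figure D3:**
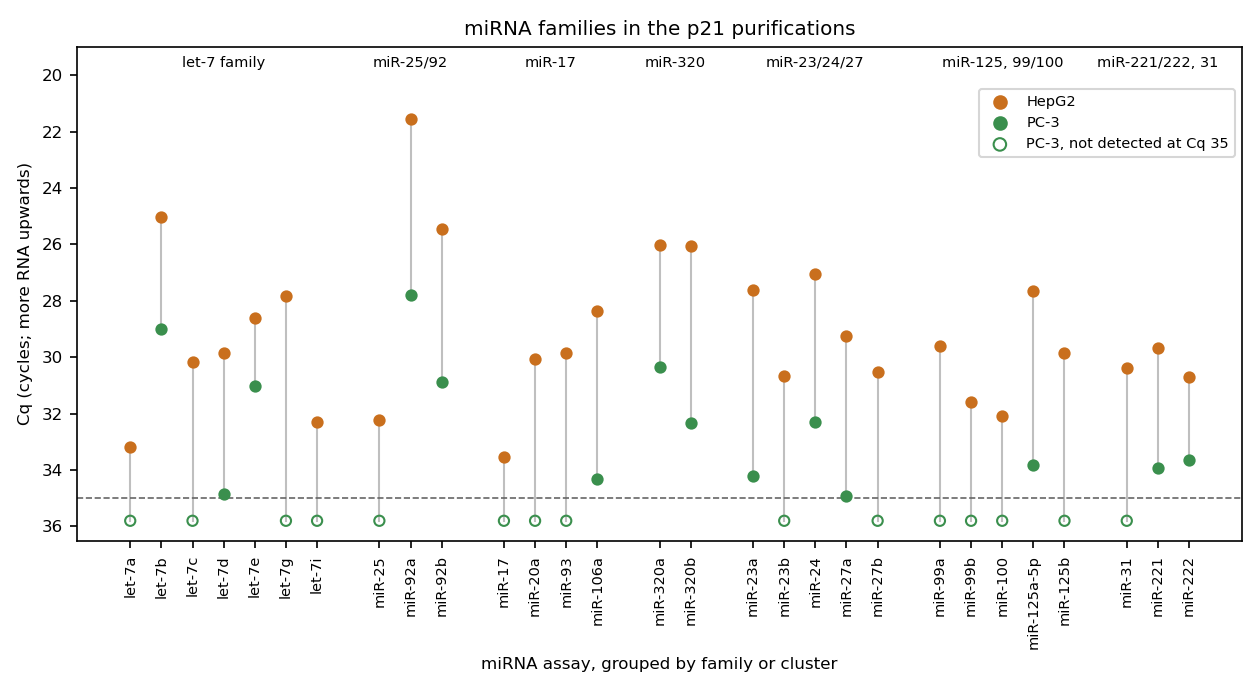
Cq in cycles (axis reversed, more RNA upwards) of the members of 7 miRNA families or clusters detected in HepG2, with HepG2 in orange and PC-3 in green joined by a line; open circles drawn below the dashed line at Cq 35 were not detected in PC-3. Every HepG2 circle lies above its PC-3 partner, from 2.41 cycles (let-7e) to 6.60 cycles (miR-23a) for those detected in both.

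The RNAs with withdrawn miRNA names, now taken to be fragments of other small RNAs, included some of the lowest Cq values of both lines, those of miR-720 and miR-1974. Their median difference was 1.82 cycles over 3 shared assays, turning to -0.69 relative to the panel median. miR-720 was at 24.69 in HepG2 and 26.50 in PC-3 (1.82 cycles, with the same turn). miR-1979 was at 28.48 and 27.97 (-0.51 cycles, turning to 0.54 relative to UniSp3), and miR-1974 at 26.46 and 30.11 (3.65 cycles). miR-1979 came at 27.94 with the control probe in HepG2 but at 33.97 in PC-3, and miR-1974 at 27.13 and 29.46, so the HepG2 signal of miR-1979 and the PC-3 signal of miR-1974 were no earlier than with the control probe. miR-886-5p (30.76) and miR-886-3p (31.12) were detected in HepG2 and gave no Cq with the p21 probe in PC-3. With the control probe they were at 39.26 and 36.59 in HepG2 and at 34.92 and 35.82 in PC-3. miR-886-5p was thus detected in PC-3 with that probe.

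The assays that were level or higher in PC-3 were scarce in HepG2, except miR-1979 and let-7d*. The limit helps to set this: a shared assay past Cq 34 in HepG2 cannot be a full cycle later in PC-3. Among the 53 assays of PC-3, miR-663, miR-1266, miR-888 and miR-346 stood at ranks 14, 15, 16 and 19. miR-1266 was at 34.35 in HepG2 and 32.74 in PC-3 (-1.61 cycles, 3.06-fold higher in PC-3) and miR-888 at 33.99 and 32.76 (-1.23, 2.34-fold). miR-346 was at 33.86 and 33.14 (-0.72, turning to 0.34 relative to UniSp3) and miR-663 at 32.51 and 32.42 (-0.091, turning to 0.96). miR-1914 (0.16), miR-99b* (0.38), miR-134 (0.47) and miR-149 (0.56) completed the 10 lowest differences, all at Cq 33.98 or later in both lines. Relative to the panel median these 4 turned to -2.14, -1.92, -2.04 and -1.95. The -1.61 and -1.23 cycles of miR-1266 and miR-888 are differences on 1 panel each, and no repeat of either assay was measured. miR-1266 stayed at -1.61 or lower on every scale, and miR-888 reached -0.18 relative to UniSp3.

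Level assays and assays higher in HepG2 were both seen with the control probe. Of the 13 shared assays less than 2-fold higher in HepG2 or higher in PC-3, 8 (61.5%) were detected with the HepG2 control probe. For 0 of these 8 was the p21 Cq earlier by a cycle or more. Of the 32 assays at least 2-fold higher in HepG2, 25 (78.1%) were detected with that control probe, beside 73.3% of all shared assays. For 23 of the 25 the p21 Cq was earlier by at least a cycle. miR-1266 gave 33.95 with the control probe in HepG2 and 33.08 in PC-3, and miR-346 gave 33.85 and 33.26, each less than a cycle from its p21 value. The HepG2 p21 value enters both splits, so they are not independent. The limit enters too: an assay past Cq 34 with the p21 probe cannot be a cycle later with the control probe and still be detected. In HepG2 miR-1266 (34.35) was past that point, and miR-888 (33.99), miR-134 (33.98) and miR-346 (33.86) were close to it. The contrast with the 23 of 25 is therefore set in part by the limit. The PC-3 control probe gave another picture: it detected 6 of the 13, and 4 of the 6 came at least a cycle earlier with the p21 probe (miR-1979 by 6.01, miR-663 by 2.26, miR-324-3p by 1.53 and let-7d* by 1.07 cycles). miR-1266 and miR-346 were the other 2. Of the 32 assays higher in HepG2 it detected 4 (12.5%, beside 46.2% of the 13). Of these 4, 1 came at least a cycle earlier with the p21 probe.

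miR-940 stood between the groups. It was at 28.92 in HepG2 and 30.51 in PC-3 (1.59 cycles, turning to -0.91 relative to the panel median), rank 22 and rank 8. With the control probe it was at 31.90 in HepG2 and 35.59 in PC-3, so it was earlier with the p21 probe in both lines. let-7b was likewise at 30.32 with the HepG2 control probe and gave no Cq with that of PC-3.

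Whether an assay of HepG2 was also seen in PC-3 went with its level in HepG2. Of 15 assays at Cq 28 or under in HepG2, 12 were detected in PC-3 (80%), and of 16 between 28 and 30, 9 were (56.2%). Of the 64 between 34 and 35, 6 were (9.38%). The first 2 of these classes hold fewer than 20 assays. The median difference of the assays detected in both ran from 5.79 cycles in the first class to 0.47 in the last, an order that the limit helps to set: an assay at Cq 33 in HepG2 cannot be more than 2 cycles later in PC-3 and still count as detected.

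**Figure D4:**
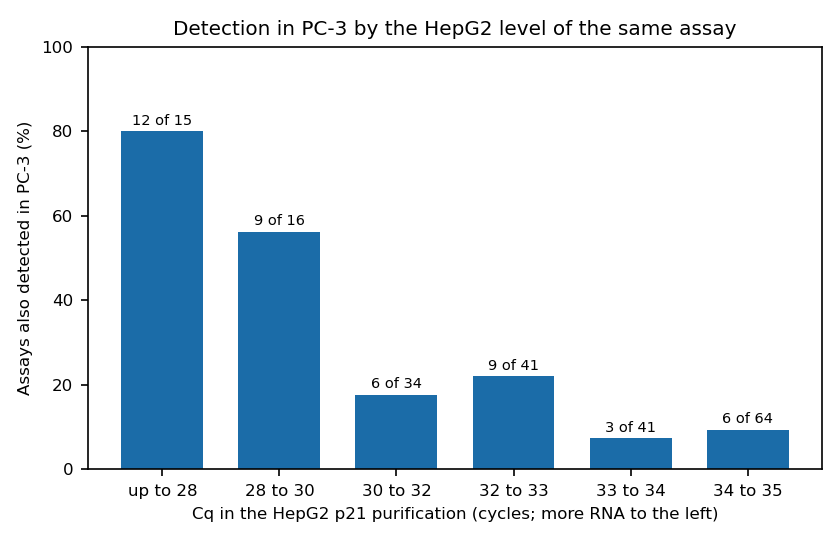
Share of the miRNA assays detected in HepG2 that were also detected in PC-3 (percent), by their Cq in HepG2 (cycles); the numbers above the bars are assays detected in PC-3 of all in the class. The share is 80% (12 of 15) for Cq 28 or under and 9.38% (6 of 64) between 34 and 35.

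Of the 166 assays seen in HepG2 alone, 71 had a recorded Cq above the limit in PC-3, 23 of them at 36 or under, and 95 had none. The most abundant was miR-296-5p, at 27.73 in HepG2 with no Cq in PC-3, at least 154-fold higher in HepG2 with PC-3 placed at the limit. let-7g (at least 144-fold), miR-103 on panel 1 (136-fold), miR-423-5p on panel 2 (97.4-fold) and miR-30c (76.9-fold) followed. These bounds compare with PC-3 at Cq 35, and the repeat wells of miR-103 and miR-423-5p were detected in PC-3. miR-124 (29.16), miR-99a (29.59), miR-125b (29.83), miR-93 (29.85) and miR-107 (29.93), whose seed is that of miR-103, completed the 10.

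Among the 166 HepG2-only assays, 70 (42.2%) were also detected with the control probe in HepG2. That compares with 16.8% of all assays and 73.3% of the shared ones. The control probe in PC-3 gave 4 of the 166 (2.41%, beside 2.15% of all assays), so HepG2-only refers to the p21 probe. miR-124 was at 29.16 with the p21 probe and 28.97 with the control probe, and miR-125b at 29.83 with both. miR-296-5p was at 36.55 with the control probe, past the limit. The group thus holds assays seen with either probe in HepG2 as well as assays seen with the p21 probe.

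All 8 assays seen in PC-3 alone were scarce. miR-542-5p was at 33.88 in PC-3 with no Cq in HepG2. miR-595 (34.18), miR-19a (34.37), miR-362-5p (34.51), miR-662 (34.57), miR-140-3p (34.58), miR-491-5p (34.83) and miR-571 (34.85) had recorded HepG2 values between 35.45 (miR-19a) and 39.46 (miR-140-3p). The bound with HepG2 at the limit is at least 2.17-fold for miR-542-5p and 1.77-fold or less for the others. With the control probe, which gave 2.15% of all assays in PC-3, 0 of the 8 were detected there. The other HepG2 purifications gave 2 of them, miR-595 at 34.52 with the control probe and miR-571 at 33.86 with the STAT3 probe. miR-19a and miR-19b, which share the seed GUGCAAA, went apart: miR-19b was at 30.17 in HepG2 with no Cq in PC-3.

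Of the miRNAs listed as known for the labelled cell types, the p21 purifications gave miR-205 alone. Of the liver-enriched set (miR-122, miR-192, miR-194, miR-215, miR-148a and miR-885-5p) 0 of 6 were detected with the p21 or the control probe in either line. The STAT3 probe in HepG2, which gave 34.4% of all assays, gave 4 of the 6. These were miR-215 at 33.67, miR-192 at 33.76, miR-148a at 34.41 and miR-194 at 34.43. miR-122, the main miRNA of hepatocytes, gave no Cq in any purification. Of 6 epithelial miRNAs only miR-205 was detected, at 32.65 in HepG2 and 34.66 in PC-3 (2.01 cycles, turning to -0.50 relative to the panel median). This share of 16.7% is below the 28.3% over all assays in HepG2 and above the 7.11% in PC-3. miRNAs known from nerve, muscle, stroma or blood gave 13 of 22 assays in HepG2 (Cq 29.16 to 34.90), among them miR-124, miR-9, miR-133a, miR-145 and miR-223. That is above the 28.3% over all assays. In PC-3 they gave 0 of 22, near the 7.11% over all assays. With the HepG2 control probe 16 of the 22 were detected, beside 16.8% of all assays. Of the 13, 10 came earlier with that probe than with the p21 probe, by 0.19 (miR-124) to 3.11 cycles (miR-338-3p). The others came earlier with the p21 probe, miR-145 by 0.10, miR-133a by 0.13 and miR-199a-5p by 3.20 cycles. The part of these 13 assays in the difference between the lines was not tested.

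Base composition overlapped widely between the groups. The mature sequence could be matched in RefSeq for 189 of 219 assays detected in at least 1 line. The median GC content was 54.5% for shared assays (37 of 45 matched), 50.0% for HepG2-only assays (145 of 166) and 52.4% for PC-3-only assays (7 of 8). Within the shared assays it was 60.9% for the level group (11 of 13 matched) and 54.5% for those at least 2-fold higher in HepG2 (26 of 32), with ranges that overlap from 40.9% to 81.0%.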

How the data were processed

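The authors deposited unnormalised Cq values, 1 well per assay, from Exiqon SYBR Green panels, with wells lacking a call marked as undetermined; the sources used here do not state how the cycle threshold was set. Columns were assigned to samples by the labels. Assays with miR or let in the name were compared between the p21 purifications, PC-3 minus HepG2 within a panel, without scaling, with detection at Cq 35 or under and 1 cycle as the size counted. The deposited table of folds against control probes was not used. With 1 purification per line no test was made. Named were the 10 lowest Cq per line, the 10 highest and lowest differences, the 10 lowest Cq seen in HepG2 only, all seen in PC-3 only, listed families and reference assays; other assays named beside them were chosen after their values were seen. The members and lists were chosen with earlier results of these data known. Panel names without an arm were matched to RefSeq by miRBase's naming history; those not matched are named only. Alternatives were Cq limits, single panels and 5 centrings; a size of 2 cycles was added after seeing the data. The calculation was tested on simulated data. Python 3.11.15 with pandas 2.3.3 was used.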

Additional observations from a re-analysis of the deposited data

Results flagged for a closer look

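For the 9 assays detected with both probes in both lines, the Cq with the control probe minus that with the p21 probe was compared between the lines. A positive value means more with the p21 probe. For 6 of the 9 the signs were opposite, but several of these values lay near 0. Each value is 1 well, and the difference was not tested. For miR-1979 it was -0.54 cycles in HepG2 and 6.01 in PC-3, a difference of 6.54. For let-7d* it was -0.53 and 1.07, a difference of 1.60, and for miR-1974 it was 0.67 and -0.64, a difference of -1.31. The other 3 differed by less than a cycle, miR-1266 by 0.75, miR-346 by 0.13 and miR-520h by -0.57. Their values in HepG2 and PC-3 were -0.40 and 0.35, -0.007 and 0.12, and 0.29 and -0.28. Such values are too near 0 for their signs to be read. Of the 6, only miR-1979 differed by more than 2 cycles.

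Outside the p21 purifications, 87 miRNA assays were detected with the STAT3 probe in HepG2 and with neither the p21 nor the control probe in either line. The lowest Cq among them was 32.18, of miR-622, which was at 37.63 with the p21 probe in HepG2.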

How the results depend on the processing

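The counts moved with the Cq limit, while HepG2 kept the larger number at each. At limits of 32, 33, 34 and 37, shared assays numbered 10, 16, 26 and 102, and 187 with any recorded Cq. HepG2-only assays were 55 at Cq 32 and 90 at 33, and PC-3-only assays 0, 2 and 2 at 32, 33 and 34 and 20 with any recorded Cq. At least 2-fold higher in HepG2 were 8, 12, 20, 69 and 129 at these 5 settings, and in PC-3 0, 0, 1, 8 and 16. The rho was 0.67 at a limit of 33. Panel 1 alone gave 97 HepG2-only assays and 1 higher in PC-3; panel 2 alone gave 14 shared, 69 HepG2-only and 1 PC-3-only, with 10 higher in HepG2 and 1 in PC-3. Centring on the panel median gave 17 higher in HepG2 and 14 in PC-3 (the median is then 0 by construction), on the small RNAs with miR-423-5p (panel 1) or miR-103 (panel 2) 21 and 11 with a median of 0.75, on U6, SNORD38B and SNORD49A 6 in PC-3 with a median of 1.54, on UniSp6 8 in PC-3 with a median of 1.20, and on UniSp3 34 in HepG2 and 1 in PC-3. With undetected wells at 35, 140 were higher in HepG2, with a median of 1.56. At 2 cycles 0 were higher in PC-3. Signs turned in 16 of 45 shared assays with the panel median as centre, 13 with the reference miRNAs included, 9 with UniSp6, 7 with UniSp3 and 6 with the small RNAs. Among named assays at least 2-fold higher in HepG2, the panel median turned let-7e to -0.095, miR-205 to -0.50, miR-940 to -0.91 and miR-720 to -0.69, and it turned the median of the withdrawn names to -0.69. No paired analysis was possible because each line was purified 1 time. Wells near Cq 35 hold little template, which limits every count made there.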
